A study of Schizosaccharomyces pombe with 9 samples.

Results

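RNA levels of the genes of amino acid biosynthesis were compared in fission yeast, Schizosaccharomyces pombe, between a parental strain and mutants selected from it. The genes were taken by name: every gene whose common name is arg, his, leu, lys, met, trp, ilv, ser, thr, tyr, pro or cys followed by a number, without non-coding RNAs, plus SPCC11E10.01, a predicted cystathionine beta-lyase gene. This gave 58 genes (called members below) of the 6986 features in the count table. SPCC11E10.01 was added by its ID because an earlier analysis of these data had already shown a large increase, so its change is described and supports nothing else. By their product names 3 members are no enzymes of amino acid synthesis: arg82 encodes a predicted inositol polyphosphate kinase, and trp1322 and trp663 encode ion channels of the plasma membrane. The other 55 carry product names of amino acid synthesis or of a cofactor it needs.

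The parent, named rpb1-CTD-T4A29 and shortened here to T4A, has a mutation affecting Thr4 in the carboxy-terminal domain (CTD) of Rpb1, the largest subunit of RNA polymerase II. The mutants STF6 and STF9 are suppressors derived from it, and the series title ties them to the release of the phosphate (PHO) genes from over-repression. All 3 groups therefore stem from a strain with this CTD mutation, no strain with an unmutated CTD was analysed here, and each group is 1 strain. Which genes are mutated in STF6 and STF9 was not among the information used. Cells were in vegetative log phase at 30 °C in YES, a rich medium made from yeast extract with supplements, and poly(A)+ RNA was measured in 3 libraries per group. Nothing in the labels says that replicates came from separate cultures, so the p-values measure only the spread between these libraries.

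Fission yeast can make all amino acids from ammonium, sulfate and sugar carbon. Sulfate is activated, reduced to sulfite and then, by a sulfite reductase that carries siroheme, to sulfide, which is joined to an acetylated amino acid to give homocysteine or cysteine. A methyl group carried by folate turns homocysteine into methionine. Serine comes from an intermediate of glycolysis in 3 steps, lysine is made by the fungal aminoadipate route, and arginine synthesis starts from glutamate in the mitochondrion. In rich medium much of the demand can be met by uptake. In budding yeast many of these genes are induced together by Gcn4 when amino acids run short, and in fission yeast the GATA factor Fil1 has a similar role.

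Total counts ranged from 15374453 to 22909747 per library, and members took 2.29% to 2.35% of them in each. Levels are CPM, counts relative to the library total after TMM scaling. Differences are given on the log2 scale ± a standard error (SE). The SE was derived from edgeR's test, as the absolute log2 difference divided by the square root of the F statistic. The words rose and fell are kept for members with an adjusted p under 0.05. That p came from edgeR's two-sided quasi-likelihood test and was adjusted over all 5951 features tested. Of the 58 members 57 passed the filter on low counts. The exception was trp663, at 0.261 to 0.623 CPM. The T4A libraries stood farther apart than those of the mutants. T4A replicate 2 was the highest T4A library for 38 of the 57 members and replicate 3 the lowest for 38. The common biological coefficient of variation over all features was 0.104.

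In STF6 against T4A, 11 of 57 members rose (19.3%) and 17 fell (29.8%). Over all features tested the background was 19.2% higher and 19.2% lower. In STF9 against T4A, 12 rose (21.1%) and 18 fell (31.6%), against a background of 23% higher and 21.3% lower. The median log2 difference of the members was −0.06 in STF6 and −0.10 in STF9, and that of all features 0.03 and 0.04. At an unadjusted p under 0.05 there were 34 members in each comparison, against a background of 48.1% of features in STF6 and 53.2% in STF9. So with TMM scaling and all 9 libraries the share of members higher was near that of all features. The share lower was above it, a difference that was not tested. Without SPCC11E10.01, 10 rose and 17 fell in STF6 and 11 rose and 18 fell in STF9. Mutant and T4A libraries were fully separated for 13 members higher and 20 lower in STF6, where the background was 25.7% and 24.5%, and for 13 higher and 22 lower in STF9, where it was 28.7% and 25.3%. All 28 members called in STF6 and all 30 called in STF9 were on the list without arg82, trp1322 and trp663. Without T4A replicate 2 the members higher numbered 19 in STF6 and 18 in STF9, with 18 lower in each. In that fit 23.3% of all features were higher and 20.6% lower in STF6, and 26% and 20.6% in STF9. Without STF9 replicate 3, 9 members fell in STF9, and the share of all features lower there was 13.6%.

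**Figure D1:**
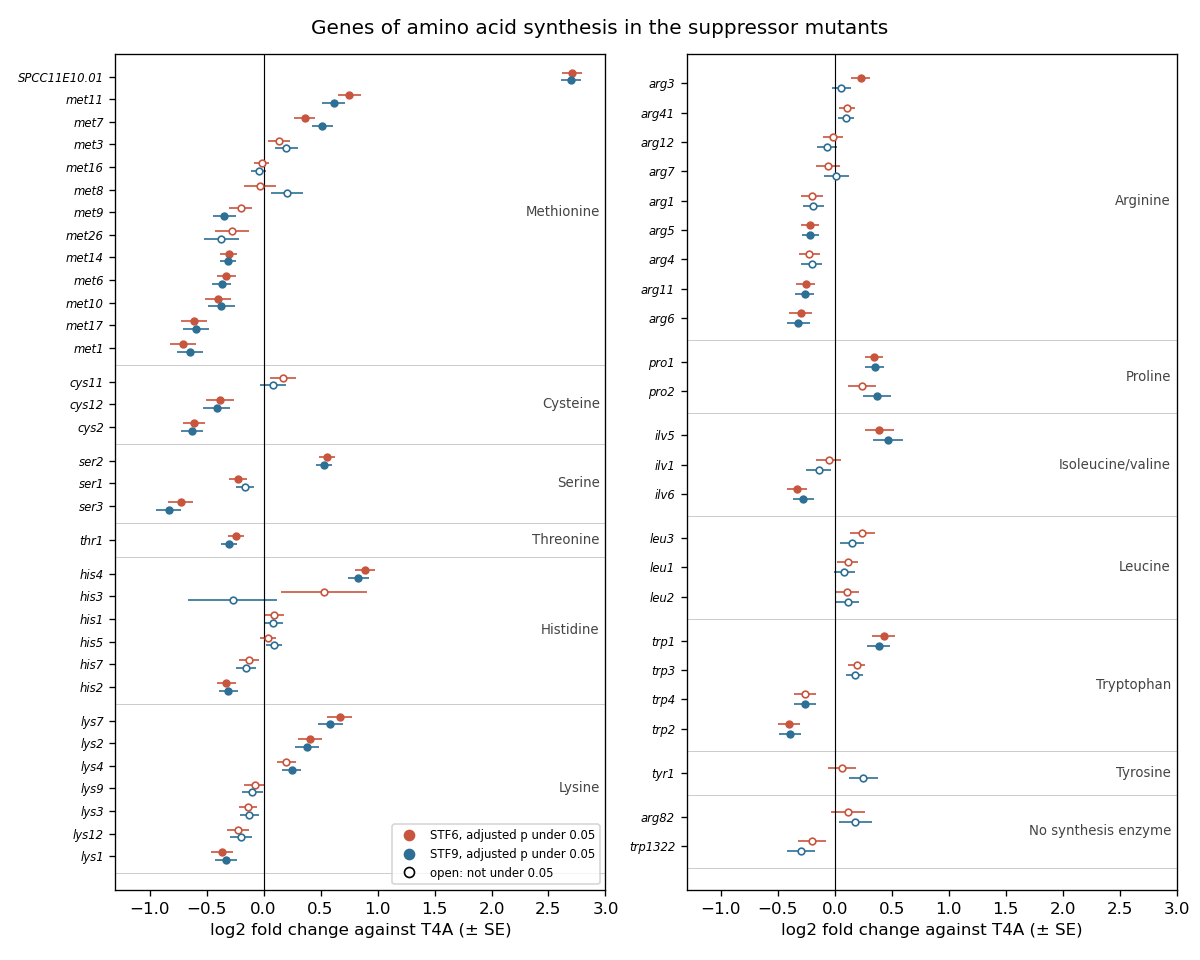
Log2 fold change against T4A (x axis, ± SE derived from edgeR's test) of the 57 tested members, grouped by the amino acid in their name, for STF6 (red) and STF9 (blue). Filled points had an adjusted p under 0.05. SPCC11E10.01 lies at 2.70 in both mutants, and no other member lies above 0.89 or below −0.83.

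By at least 1.5-fold, 4 members rose and 4 fell in STF6, and as many did so in STF9. The background was 7.19% higher and 7.63% lower in STF6 and 9.06% and 7.66% in STF9, close to the share of the members. These were SPCC11E10.01, his4, met11 and lys7 among those that rose, and ser3, met1, cys2 and met17 among those that fell, the same genes in both mutants. Without SPCC11E10.01, which was added for its increase, 3 rose in each mutant. The comparisons share the T4A libraries and are not independent of each other.

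**Figure D2:**
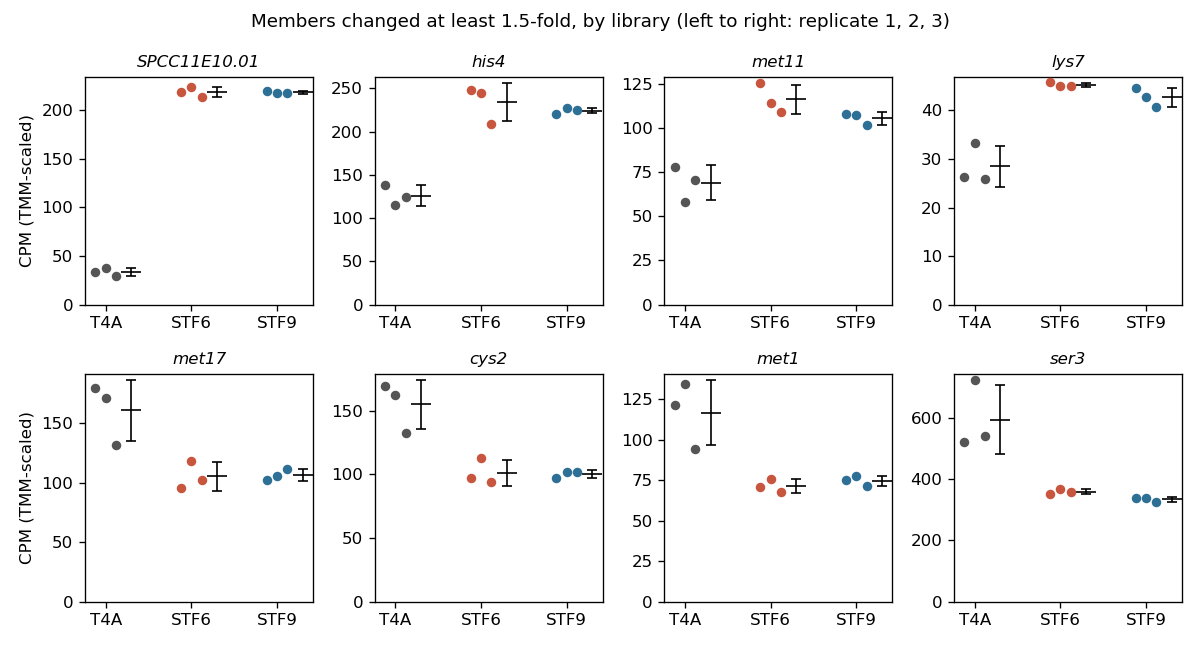
CPM (y axis, from 0) in each of the 9 libraries for the 8 members that changed at least 1.5-fold, with points for replicates 1 to 3 and the group mean ± SD beside them. In all 8 genes the T4A libraries lie entirely to one side of the 6 mutant libraries, which sit between 214 and 224 CPM for SPCC11E10.01 against 29.4 to 37.4 in T4A.

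Most pathways with several members held increases next to decreases or next to genes that did not pass. Among the exceptions, both proline genes rose in STF9. The counts per pathway stand against 19.2% of all features higher and 19.2% lower in STF6, and 23% and 21.3% in STF9. With so few genes in a pathway they were not tested against these shares.

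**Figure D3:**
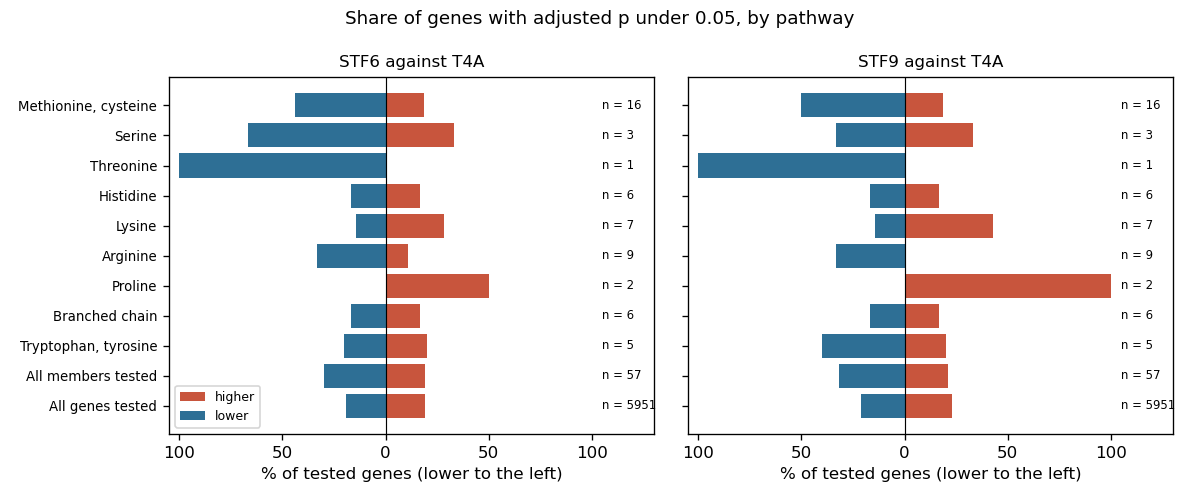
Percent of the tested genes of each pathway that rose (right) or fell (left) in STF6 and in STF9 against T4A, with all 57 members and all 5951 features at the bottom. The number of genes in each pathway is printed at the right; pathways with 1 to 3 genes give coarse shares, and the methionine and cysteine genes have 43.8% and 50% lower.

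Sulfur amino acid genes made up 16 of the 57. In STF6 3 of them rose and 7 fell, and in STF9 3 rose and 8 fell, where all features had 19.2% higher and 19.2% lower in STF6 and 23% and 21.3% in STF9. One of those that rose in each mutant is SPCC11E10.01, added for its known increase. SPCC11E10.01 (the predicted cystathionine beta-lyase, which splits cystathionine to homocysteine) stood at 33.9, 37.4 and 29.4 CPM in T4A replicates 1 to 3, at 218, 224 and 214 CPM in STF6, and at 219, 217 and 217 CPM in STF9. The mutant libraries were far above all T4A libraries and close to each other. The increase was 6.52-fold in STF6 (log2 2.70 ± 0.09, adjusted p = 4.65e-10) and 6.5-fold in STF9 (2.70 ± 0.09, adjusted p = 4.74e-10). Since SPCC11E10.01 was added for this increase in the same data, these values describe it and are no independent test. Over the 16 alternative analyses its log2 value lay between 2.62 and 2.80 in STF6 and between 2.61 and 2.79 in STF9. Its neighbour in the same route, met3, annotated as a cystathionine gamma-synthase, which makes cystathionine, did not pass in either mutant (0.13 ± 0.10 and 0.20 ± 0.10).

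Several genes of the steps that reduce sulfate to sulfide fell. For met14, which encodes the predicted adenylyl-sulfate kinase, the levels were 588, 625 and 572 CPM in T4A, 475, 482 and 488 in STF6, and 487, 490 and 460 in STF9, with no overlap between T4A and either mutant. It fell by 0.30 ± 0.07 on the log2 scale in STF6 and by 0.31 ± 0.07 in STF9. The next enzyme's gene, met16 (PAPS reductase), lay at 125 to 133 CPM in all 9 libraries and did not pass (−0.02 ± 0.06 and −0.04 ± 0.06). Of the sulfite reductase, the flavoprotein subunit gene met10 fell (−0.40 ± 0.11 and −0.37 ± 0.11), a call that was lost in STF9 without T4A replicate 1 or STF9 replicate 3. The gene of its other subunit, sir1, which the name rule does not take, fell from 904.5 ± 170 (SD, n = 3) to 528 ± 48.0 CPM in STF6 and 522 ± 9.17 CPM in STF9 (−0.78 and −0.79).

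Siroheme, the cofactor of that enzyme, is made by the products of met1 and met8. The uroporphyrin methyltransferase gene met1 (SPCC1739.06c) was at 122, 134 and 94.6 CPM in T4A, at 70.6, 75.9 and 67.9 CPM in STF6 and at 75.3, 77.5 and 71.2 CPM in STF9. All mutant libraries were below the lowest T4A library, replicate 3. It fell 1.63-fold in STF6 (−0.71 ± 0.11, adjusted p = 0.000435) and 1.56-fold in STF9 (−0.65 ± 0.11, adjusted p = 0.00079). The siroheme synthase gene met8 did not pass (−0.03 ± 0.14 and 0.21 ± 0.14).

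Of the 5 members for the acetylation of homoserine and the incorporation of sulfide, 4 fell in both mutants. Of all features 19.2% were lower in STF6 and 21.3% in STF9. These 5 are a part of the sulfur genes counted above, and their count was not tested. The predicted homoserine O-acetyltransferase gene cys2 (SPBC106.17c) was at 170, 162 and 133 CPM in T4A against 97.1, 113 and 93.8 CPM in STF6 and 97.0, 102 and 102 CPM in STF9. The groups did not overlap, and cys2 fell 1.53-fold in STF6 (−0.61 ± 0.10, adjusted p = 0.000522) and 1.55-fold in STF9 (−0.63 ± 0.10, adjusted p = 0.000458). A further gene annotated with the same activity, met6, fell by less (−0.33 ± 0.08 and −0.37 ± 0.08). The homocysteine synthase gene met17 (SPBC428.11) was at 180, 171 and 131 CPM in T4A, 95.2, 119 and 102 CPM in STF6, and 102, 106 and 111 CPM in STF9. Its lowest T4A library, replicate 3, was above every mutant library, and met17 fell 1.53-fold in STF6 (−0.61 ± 0.11, adjusted p = 0.00136) and 1.51-fold in STF9 (−0.59 ± 0.11, adjusted p = 0.00161). Of the cysteine synthase genes, cys12 fell (−0.38 ± 0.12 and −0.41 ± 0.12) and cys11 did not pass (0.17 ± 0.11 and 0.08 ± 0.11). The cys12 call was lost without STF6 replicate 3 in STF6 and without STF9 replicate 3 in STF9, and cys11 rose in both mutants without T4A replicate 2 (0.32 and 0.23). The product names of cys11 and cys12, and of cys2 and met6, are alike; whether such genes share reads was not tested.

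The genes that feed methyl groups to homocysteine split. Each of met9 and met11 encodes a methylenetetrahydrofolate reductase, which makes the methyl donor. For met11 (SPAC343.10) the levels were 77.9, 58.2 and 70.5 CPM in T4A, 125, 114 and 109 CPM in STF6 and 108, 107 and 101 CPM in STF9. Every mutant library was above every T4A library, and T4A replicate 2 was the lowest. The rise was 1.68-fold in STF6 (0.75 ± 0.10, adjusted p = 0.000119) and 1.53-fold in STF9 (0.61 ± 0.10, adjusted p = 0.000559). In contrast, met9 was at 190, 244 and 185 CPM in T4A against 169 to 188 CPM in STF6 and 160 to 167 CPM in STF9. It fell in STF9 (−0.34 ± 0.10, adjusted p = 0.015), a call lost without STF9 replicate 3, and did not pass in STF6 (−0.20 ± 0.10, adjusted p = 0.124), where it passed without T4A replicate 3. The folylpolyglutamate synthase gene met7 rose (0.36 ± 0.09 and 0.51 ± 0.09). The homocysteine methyltransferase gene met26, which encodes the last step to methionine, was uneven in T4A, at 2460, 3867 and 2503 CPM, and between 2258 and 2507 CPM in the mutants. It did not pass (−0.27 ± 0.15 and −0.37 ± 0.15), and it fell in STF6 without T4A replicate 3 and in STF9 without T4A replicate 1 or 3. In STF9 met26 also fell with DESeq2 and with library size alone as the scaling, and the authors' deposited table calls it lower there (−0.42). The next enzyme's gene, sam1, which turns methionine into S-adenosylmethionine and is not taken by the name rule, was at 1723, 2617 and 1868 CPM in T4A, at 914 to 1010 CPM in STF6 and at 831 to 887 CPM in STF9. It fell by 1.11 ± 0.14 and 1.26 ± 0.14 on the log2 scale.

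**Figure D4:**
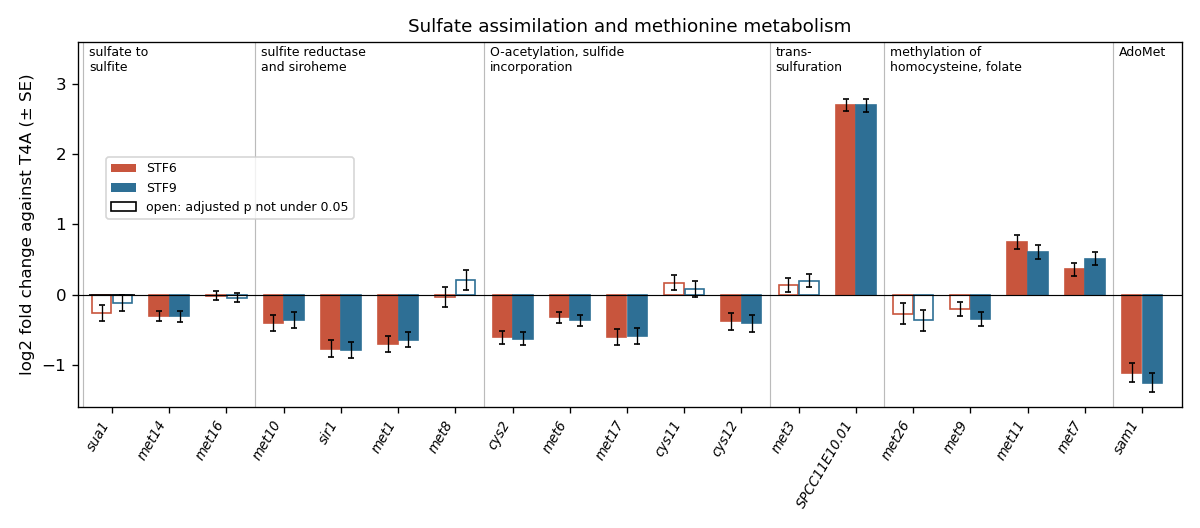
Log2 fold change against T4A (y axis, ± SE) of genes along sulfate assimilation and methionine metabolism in STF6 (red) and STF9 (blue); open bars had an adjusted p of 0.05 or more. The genes sua1, sir1 and sam1 are no members. Bars from met14 to cys12 lie mostly below 0, SPCC11E10.01 stands at 2.70, and met11 and met7 lie above 0.

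The serine genes moved in opposite directions along a route of 3 enzymes. For ser3 (SPCC364.07), the D-3-phosphoglycerate dehydrogenase gene of the first step, the levels were 520, 722 and 539 CPM in T4A, 352, 368 and 357 CPM in STF6 and 339, 338 and 323 CPM in STF9. Mutant libraries were all below T4A, in which replicate 2 was the highest. It fell 1.65-fold in STF6 (−0.73 ± 0.11, adjusted p = 0.000327) and 1.78-fold in STF9 (−0.83 ± 0.11, adjusted p = 0.000124), and without T4A replicate 2 it still fell. The aminotransferase gene ser1, of the second step, was at 683, 714 and 599 CPM in T4A and between 568 and 599 CPM in the mutants. It fell in STF6 (−0.22 ± 0.08, adjusted p = 0.046) and did not pass in STF9 (−0.16 ± 0.08, adjusted p = 0.123). Its call in STF6 was lost without T4A replicate 1, STF9 replicate 3 or any STF6 library, and it fell in STF9 without T4A replicate 3. The STF6 call of ser1 was also lost with median-ratio scaling, without the low-count filter and with only the 6 libraries compared. The phosphatase gene of the last step, ser2, rose from 133, 115 and 120 CPM to 184, 181 and 176 CPM in STF6 and 178, 180 and 173 CPM in STF9, with no overlap (0.56 ± 0.07, adjusted p = 9.63e-05, and 0.53 ± 0.07, adjusted p = 0.000156). The single threonine gene, thr1 (homoserine kinase), was at 184, 198 and 177 CPM in T4A, 163, 160 and 149 CPM in STF6, and 155, 152 and 145 CPM in STF9, and fell in both (−0.24 ± 0.07 and −0.30 ± 0.07).

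Of the 6 histidine genes, his4 rose and his2 fell in both mutants, and his1, his3, his5 and his7 did not pass. Levels of his4 (SPBC418.01c, imidazoleglycerol-phosphate synthase, which closes the imidazole ring) were 139, 115 and 124 CPM in T4A, 248, 245 and 208 CPM in STF6, and 221, 227 and 224 CPM in STF9. The lowest mutant library was well above the highest T4A library. The rise was 1.86-fold in STF6 (0.89 ± 0.09, adjusted p = 1.34e-05) and 1.78-fold in STF9 (0.83 ± 0.09, adjusted p = 2.42e-05), the largest among members with a rule-matching name. The histidinol dehydrogenase gene his2, of the last steps, fell (−0.33 ± 0.09 and −0.31 ± 0.09). The transaminase gene his3 was low and uneven in every group, from 3.81 CPM in STF9 replicate 3 to 18.6 CPM in STF6 replicate 3, and its differences carried an SE of 0.38 and 0.39. The values of his1 (0.09 ± 0.09 in each mutant), his5 (0.04 ± 0.07 and 0.09 ± 0.07) and his7 (−0.13 ± 0.09 and −0.16 ± 0.09) were near 0. Without T4A replicate 2 his1 rose in both, and without T4A replicate 3 his7 fell in both.

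Lysine had 7 genes, of which 2 rose and 1 fell in STF6 and 3 rose and 1 fell in STF9. The gene lys7 (SPAC17C9.02c) encodes the phosphopantetheinyl transferase that activates the aminoadipate reductase Lys1. It was at 26.3, 33.4 and 25.9 CPM in T4A, 45.8, 45.0 and 44.9 CPM in STF6, and 44.7, 42.8 and 40.8 CPM in STF9, with T4A below all mutant libraries. The rise was 1.59-fold in STF6 (0.67 ± 0.11, adjusted p = 0.000564) and 1.5-fold in STF9 (0.59 ± 0.11, adjusted p = 0.00135). Its target's gene, lys1, went the other way (−0.37 ± 0.10 and −0.33 ± 0.10), at 586, 700 and 537 CPM in T4A and 446 to 497 CPM in the mutants, and that call was lost in STF9 without STF9 replicate 3. The homoaconitate hydratase gene lys2 rose (0.41 ± 0.11 and 0.38 ± 0.11), a call lost in STF9 without T4A replicate 1 or STF9 replicate 1. The homocitrate synthase gene lys4, of the entry step, rose in STF9 (0.25 ± 0.08, adjusted p = 0.0275) but not in STF6 (0.20 ± 0.08, adjusted p = 0.0679). The lys4 call in STF9 was lost without STF6 replicate 1 or 2 or any STF9 library, and lys4 rose in STF6 without T4A replicate 2. The remaining genes lys3, lys9 and lys12 lay between −0.22 and −0.08 and did not pass. Without T4A replicate 2 lys12 fell in both mutants, and without T4A replicate 3 lys3 fell in both and lys12 in STF6.

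The arginine genes had a median of −0.20 in STF6 and −0.19 in STF9. Of 9, 1 rose and 3 fell in STF6, and 3 fell in STF9. Those that fell act in the mitochondrial part of the route or supply its carbamoyl phosphate. The acetylglutamate synthase gene arg6, of the entry step, was at 214, 254 and 184 CPM in T4A, 177, 182 and 171 CPM in STF6 and 179, 165 and 177 CPM in STF9, so that the T4A libraries stood above the mutants but T4A replicate 3 only narrowly. It fell by 0.30 ± 0.10 and 0.32 ± 0.10. The gene arg11, for the reductase and kinase that follow, fell by 0.26 ± 0.08 in each, and arg5, for the carbamoyl-phosphate synthase subunit, by 0.22 ± 0.07 in each. The ornithine carbamoyltransferase gene arg3 rose in STF6 only by a narrow margin (0.23 ± 0.08, adjusted p = 0.0445; 0.06 ± 0.08 in STF9, adjusted p = 0.586), and this call was lost in 11 of 16 alternatives. For arg1, arg4, arg7, arg12 and arg41 the values lay between −0.22 and 0.11 and did not pass. The calls of arg5, arg6 and arg11 also rested on single libraries. In STF6 each was lost without T4A replicate 1 or STF6 replicate 3, arg6 also without STF6 replicate 1 and arg5 without STF9 replicate 3, and that of arg3 without T4A replicate 3 or any mutant library. In STF9 each was lost without STF9 replicate 3, arg5 and arg6 also without STF9 replicate 2, and arg5 without T4A replicate 1. Without T4A replicate 3, arg1 and arg4 fell in both mutants, and without T4A replicate 2 arg41 rose in both. Both arg7 and arg41 are annotated as argininosuccinate lyase genes, and whether they share reads was not tested.

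Of the proline genes, pro1 (gamma-glutamyl phosphate reductase) was at 58.3, 52.2 and 56.2 CPM in T4A, 76.6, 68.9 and 65.9 CPM in STF6, and 69.6, 70.5 and 72.3 CPM in STF9. It rose in both (0.34 ± 0.08 and 0.35 ± 0.08) with no overlap. The glutamate 5-kinase gene pro2, of the step before, rose in STF9 (0.37 ± 0.12, adjusted p = 0.0257) and did not pass in STF6 (0.24 ± 0.12, adjusted p = 0.142). Its T4A level was uneven, at 67.2, 44.5 and 62.0 CPM. The STF9 call was lost without any 1 of the 6 mutant libraries, and pro2 rose in STF6 without T4A replicate 1.

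Branched-chain genes showed no common direction. The acetohydroxyacid reductoisomerase gene ilv5 was at 1637, 1972 and 1302 CPM in T4A, 2231, 2174 and 2039 CPM in STF6 and 2265, 2260 and 2264 CPM in STF9. It rose in both (0.39 ± 0.13, adjusted p = 0.0294, and 0.47 ± 0.13, adjusted p = 0.0119), while the T4A libraries spread by more than the gap to the mutants. In STF6 that call was lost without T4A replicate 1, STF9 replicate 2 or any STF6 library. The regulatory subunit gene of acetolactate synthase, ilv6, went from 980, 1084 and 878 CPM to 755, 799 and 784 CPM in STF6 and 809, 809 and 812 CPM in STF9 and fell (−0.33 ± 0.09 and −0.28 ± 0.09). Its call in STF9 was lost without T4A replicate 1, STF9 replicate 2 or STF9 replicate 3. The catalytic subunit gene ilv1 did not pass (−0.06 ± 0.11 and −0.14 ± 0.11). The 3 leucine genes did not pass. For leu3 (2-isopropylmalate synthase), the one with the smallest p, the levels were 235, 280 and 206 CPM in T4A, 308, 291 and 253 CPM in STF6 and 271, 272 and 257 CPM in STF9, which overlap (0.24 ± 0.11 and 0.15 ± 0.11). Without T4A replicate 2 all 3 rose in STF6, and leu2 and leu3 rose in STF9.

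Tryptophan genes moved both ways. The multifunctional gene trp1, which includes an anthranilate synthase component, rose from 130, 103 and 126 CPM to 179, 160 and 145 CPM in STF6 and 154, 152 and 164 CPM in STF9 (0.43 ± 0.10 and 0.38 ± 0.10). The tryptophan synthase gene trp2, of the last step, fell (−0.40 ± 0.10 and −0.39 ± 0.10) from at least 726 CPM in T4A to at most 643 CPM in the mutants. The gene of the other anthranilate synthase component, trp3, did not pass (0.19 ± 0.08 and 0.17 ± 0.08) and rose in both without T4A replicate 2. The phosphoribosyltransferase gene trp4 fell in STF9 (−0.26 ± 0.10, adjusted p = 0.0456) and missed the threshold in STF6 (−0.26 ± 0.10, adjusted p = 0.0514). Its STF9 call was lost without T4A replicate 2 or any STF9 library, and it fell in STF6 without T4A replicate 3 or STF9 replicate 1. The prephenate dehydrogenase gene tyr1 did not pass, at 39.7, 30.3 and 41.1 CPM in T4A, 34.6, 40.5 and 41.1 CPM in STF6, and 41.0, 44.2 and 47.2 CPM in STF9 (0.06 ± 0.13 and 0.25 ± 0.12). The 2 tested members that encode no enzyme of synthesis did not pass either. The channel gene trp1322 was at 49.5, 68.5 and 50.6 CPM in T4A and 41.2 to 49.4 CPM in the mutants (−0.20 ± 0.12 and −0.29 ± 0.12), and arg82 gave 0.12 ± 0.15 and 0.18 ± 0.15. Without T4A replicate 1 or 3, trp1322 fell in STF9.

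**Figure D5:**
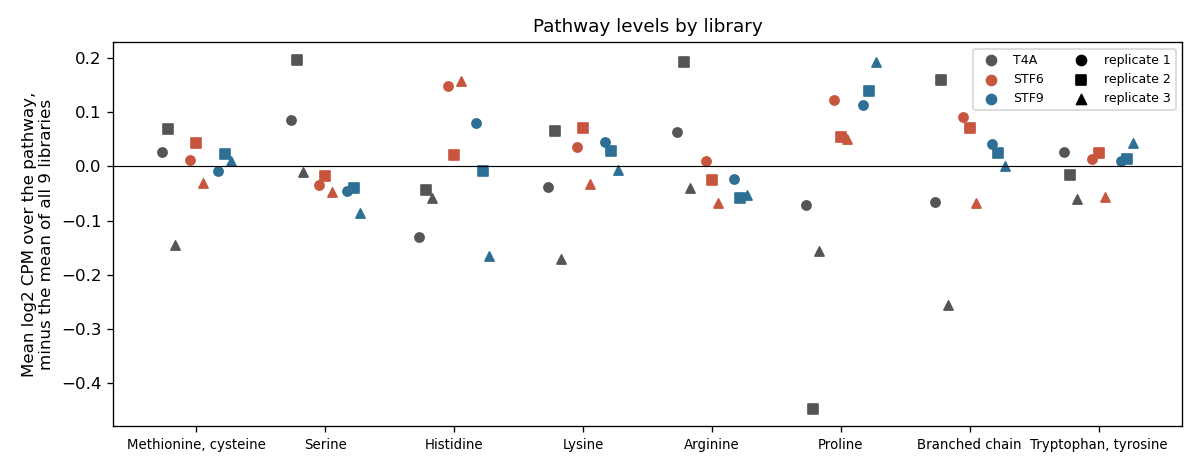
Mean log2 CPM over the tested members of each pathway in every library (y axis, minus the mean of the 9 libraries), with group by colour and replicate by marker. T4A libraries (grey) spread more widely than the mutants in the branched-chain, arginine and proline genes but not in the histidine genes, the serine mean is lower in all 6 mutant libraries than in every T4A library, and the proline mean is higher.

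The libraries of a group also differed in their pathway levels. The mean log2 CPM of the branched-chain genes was 9.17, 9.39 and 8.97 in T4A replicates 1 to 3, a wider range than the 9.16 to 9.32 of the 6 mutant libraries, which lie within it. For the arginine genes it was 8.03, 8.16 and 7.92 in T4A and 7.90 to 7.97 in the mutants, so that T4A replicate 3 lay among the mutants. For the serine genes it was 8.50, 8.61 and 8.40 in T4A and 8.33 to 8.39 in the mutants, with a narrow gap to T4A replicate 3. For the proline genes it was 5.97, 5.59 and 5.89 in T4A, lowest in replicate 2, and 6.09 to 6.24 in the mutants. For the histidine genes the mutants spread more widely, from 7.39 to 7.71, than the T4A libraries, from 7.42 to 7.51. What sets T4A replicate 2 and 3 apart was not tested.

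STF9 was also compared with STF6. None of the 57 members passed by edgeR's test (smallest adjusted p = 0.980), and the background was 0% of the 5951 features. At an unadjusted p under 0.05 the count of members was 0 too, beside 2.99% of all features, and DESeq2 called 0 with 0 at an unadjusted p under 0.05. The largest difference was in his3 (−0.80), a gene with low and uneven counts, and all other members lay between −0.17 and 0.24. Libraries did not overlap for 5 members higher in STF9 and 7 lower, where the background was 9.63% and 7.36%. Among these, met7 was at 42.9, 40.5 and 42.8 CPM in STF6 and 44.0, 47.8 and 48.4 CPM in STF9 (0.15 ± 0.09). The fit of all 9 libraries took its spread partly from T4A, whose libraries lay farther apart. With only the 6 mutant libraries, 0 members passed by edgeR's test (smallest adjusted p = 0.207). In that fit, at an adjusted p under 0.05, 0.119% of all features were higher and 0.17% lower in STF9. There 9 members had an unadjusted p under 0.05. The share of all features at that unadjusted p was not counted in this fit, so the 9 have no background. A p that misses the threshold does not show that the mutants are alike.

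Genes of the same metabolism that the names do not catch also moved both ways. Apart from those changed at least 1.5-fold, the genes named from these lists were picked after their values were seen. The counts below stand against 19.2% of all features higher and 19.2% lower in STF6, and 23% and 21.3% in STF9. Of 30 names listed for other steps of amino acid synthesis and use, 21 were matched and tested, and 3 rose and 3 fell in STF6, with 2 and 3 in STF9. Besides sam1, the pentafunctional aromatic enzyme gene aro1 fell (−0.47 and −0.48), as did the serine hydroxymethyltransferase gene shm1 (−0.43 and −0.46), whose call was lost without STF6 replicate 3 in STF6 and STF9 replicate 3 in STF9. The asparagine synthase gene asn2 rose (0.35 and 0.41). The other increases were in the glutamate dehydrogenase gene gdh2, in both mutants (0.40 and 0.34), and in shm2, in STF6 (0.39). The gdh2 call in STF6 was lost without STF6 replicate 1, and that in STF9 without any of 7 single libraries. In aro1, shm1 and sam1 T4A replicate 2 was the highest of all libraries. Without it 8 rose and 3 fell in STF6, and 7 rose and 3 fell in STF9. In that fit 23.3% of all features were higher and 20.6% lower in STF6, and 26% and 20.6% in STF9. Of 7 matched genes of sulfate assimilation and thiol synthesis, 2 rose and 2 fell in each mutant. These were the ergothioneine gene egt1 (0.74 and 0.77), sir1, gcv1 for a glycine decarboxylase subunit (−0.31 and −0.38), and mst1 (0.48 and 0.75), which the authors' table names a histone acetyltransferase and which was matched by its name alone. The gcv1 call in STF6 was lost without STF6 replicate 1 or 3, and that of mst1 in STF6 without T4A replicate 1 or any mutant library. The sulfate adenylyltransferase gene sua1, at the head of the route, did not pass (−0.26 and −0.12), and fell in both mutants without T4A replicate 3 and in STF6 with DESeq2.

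Among 15 matched genes of amino acid control and sensing, 2 rose and 5 fell in STF6 and 1 rose and 5 fell in STF9. Of all features, 19.2% were higher and 19.2% lower in STF6, and 23% and 21.3% in STF9. The eIF2 alpha kinase gene hri1 fell from 40.1, 58.5 and 36.2 CPM to 23.9 to 27.3 CPM in STF6 and 23.6 to 26.4 CPM in STF9 (−0.83 and −0.84). The Gcn2 activator gene gcn1 fell (−0.66 and −0.63) and the kinase gene gcn2 rose (0.36 and 0.46). The F-box gene pof1, whose product targets the sulfur and cadmium response factor Zip1 for degradation, fell (−0.46 and −0.57), zip1 itself fell slightly (−0.24 in each), and the Rag GTPase gene gtr2 fell (−0.57 and −0.47). The fil1 gene, for the GATA factor, was at −0.13 and −0.24 and did not pass. It was lower at the threshold in STF9 in 8 of 16 alternatives, among them DESeq2 and the fits without T4A replicate 3 or any STF6 library. Without T4A replicate 2 the counts were 4 and 5 in STF6 and 3 and 5 in STF9, and zip1 did not pass. In that fit 23.3% of all features were higher and 20.6% lower in STF6, and 26% and 20.6% in STF9. The zip1 call was also lost in both mutants without T4A replicate 1, in STF6 without STF9 replicate 3 or any STF6 library, and in STF9 without STF9 replicate 2 or 3. The gcn2 call was lost in STF6 without T4A replicate 1, STF9 replicate 1 or 2 or any STF6 library, and in STF9 without STF9 replicate 2 or 3. The remaining increase, of tor2 in STF6 (0.22), was lost in 12 of 16 alternatives, among them those without T4A replicate 1 or 3 or any mutant library. Of 10 matched amino acid permease genes, 0 rose and 4 fell in each mutant, among them isp5 (−0.92 in each) and agp3 (−0.60 and −0.66). Without T4A replicate 2, 1 rose, and 4 fell in STF6 and 3 in STF9, beside the shares of all features given above for that fit.

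Antisense RNAs are annotated for 8 members and were all tested. That of ser2 fell (−1.01 and −1.23), from 1.71 CPM in T4A to 0.812 and 0.704 CPM, while ser2 rose. That of arg82 fell in both mutants (−0.62 and −0.53) and that of arg4 in STF6 (−0.85), and those of met8, met10, his5, met3 and lys9 did not pass. All 8 averaged below 10 CPM in every group. Whether the reads were counted by strand is unknown here, so sense and antisense values cannot be told apart with certainty. In RefSeq's annotation of assembly ASM294v3, used only for which genes lie beside or across each other, several strongly changed members overlap a protein-coding gene. SPCC11E10.01 overlaps gpi8 on the opposite strand, and gpi8 did not pass (−0.09 ± 0.13 and 0.01 ± 0.13). The same held for msc1 across met11 (0.04 ± 0.09 and 0.09 ± 0.09), pre6 across cys2 (−0.11 ± 0.07 and −0.16 ± 0.07) and nuc2, on the same strand as lys7 (−0.26 ± 0.14 and −0.18 ± 0.14). The gene before met17 on its strand, SPBC428.10, rose (0.88 ± 0.13 and 0.90 ± 0.13) while met17 fell. Other neighbours changed too. The non-coding RNA SPNCRNA.1197, beside SPCC11E10.01 on the opposite strand, rose (1.02 ± 0.27 and 0.74 ± 0.28) from 0.899 CPM in T4A. Beside lys7, tif471 rose (0.42 and 0.58) and slc1 fell (−0.37 and −0.36), and beside ser3, nap1 rose (0.51 in each).

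In the authors' deposited tables, at their adjusted p under 0.05, 12 members are higher and 23 lower in STF6, and 12 higher and 26 lower in STF9. The share of all features called in those tables was not counted. These counts therefore have no background here, and the edgeR shares come from another test. Of the 11 and 17 called in STF6 by edgeR, the authors' deposited table calls 10 and 17 in the same direction, and of the 12 and 18 called in STF9 it calls all, with 0 in the opposite direction. The authors' deposited tables give SPCC11E10.01 log2 values of 2.67 in STF6 and 2.66 in STF9.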

How the data were processed

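Poly(A)+ RNA of 3 strains, 3 libraries each, was analysed from a table of raw counts per gene that the authors deposited. Per the submitters' processing notes HISAT2 2.1.0, SAMtools, HTSeq 0.10.0 and DESeq2 were used with build ASM294v2. No annotation or strand setting is named in them. The deposited comparison tables hold, per the file headers, log2 fold changes, standard errors and Wald statistics (scores), p-values, and averaged normalized counts (signal) made by the authors. They supplied gene names (4841 matched to systematic IDs), products and the authors' calls.

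The table had 6987 lines, of which 1 duplicate line of zeros was dropped. In R 4.3.3, edgeR 4.0.16 was run on the counts with its default low-count filter, TMM scaling, 1 group term and the quasi-likelihood test over all 9 libraries, with Benjamini-Hochberg adjustment over 5951 features. The procedure was tested on simulated data. Mean log2 CPM used a prior count of 2. Replicates differed by more than sampling noise, so each counted once. DESeq2 1.42.0, other scalings and filters, a replicate block, fits of 6 libraries and leaving out each library were alternatives. The figures were drawn with matplotlib 3.10.9. RefSeq's ASM294v3 served only for gene order, since the builds differ; no sequence or coordinate was taken from it.

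Values in all libraries are given for members called at 1.5-fold or more, for the member with the smallest p in each name group and for SPCC11E10.01. Further members were given library values after these had been seen. The members and gene lists were chosen with earlier results of these data known. Levels of different genes are not compared, since no gene length was used.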

Additional observations from a re-analysis of the deposited data

How the results depend on the processing

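Of the 28 members called in STF6 against T4A, 19 kept their call and direction in all 16 alternatives (9 higher, 10 lower), and of the 30 called in STF9, 18 did (9 higher, 9 lower). No called member reversed in these alternatives. Calls depended on the processing as well as on single libraries. With only the 6 libraries compared, arg3, arg5, arg6, arg11, cys12, ilv5, ilv6, ser1 and thr1 lost their call in STF6. In STF9 arg5, arg11, ilv6, lys4, pro2 and trp4 did. Median-ratio scaling removed arg3, ilv5 and ser1 in STF6 and lys4 in STF9. Library size alone removed arg3 in STF6 and pro2 in STF9, and DESeq2 removed arg3 in STF6. With library size alone as the scaling, 18 members were higher in STF6, and with only the 6 libraries compared, 10 were lower there. Leaving out 1 library at a time gave 9 to 19 members higher and 12 to 25 lower in STF6, and 9 to 18 higher and 9 to 25 lower in STF9. The shares of all features moved as well in these fits, from 12.4% to 23.6% higher and 15.1% to 24.2% lower in STF6, and in STF9 up to 27.5% higher and from 13.6% to 25.6% lower. The highest counts of increases came without T4A replicate 2, and the lowest of decreases in STF9 without STF9 replicate 3. The cause was not tested. STF9 against STF6 gave 0 members called in every alternative. At an unadjusted p under 0.05 it gave 9 with only the 6 libraries compared and 7 without T4A replicate 2. The shares of all features at that unadjusted p were not counted in these 2 fits. With the replicate number as a block, 13 members were higher and 18 lower in STF6, and 12 and 19 in STF9. Of all features, 21.2% were higher and 19.7% lower in STF6 with the block, and 25.3% and 21.8% in STF9. The block added leu3, trp3 and trp4 in STF6 and trp1322 in STF9. Same-numbered libraries did not deviate together in every case (correlations −0.306 to 0.38, own number best in 7 of 18). For replicate 3 the correlation was above 0 in each pair of groups (0.38, 0.248 and 0.0828), and replicates 1 and 2 gave both signs. With 3 libraries a group this check is weak, so whether the numbers pair the libraries stays unknown. Scaling by library size alone moved the median of all features by 0.06 in STF6 and 0.05 in STF9. With 3 libraries a group, and T4A libraries that spread more than the others, small differences may be missed. The main fit shares 1 estimate of the spread over the 3 groups, which can also make the calls against T4A too many. With only the 6 libraries compared, 14.8% of all features were higher and 14.4% lower in STF6, and 15.7% and 16.8% in STF9. Such fits also have fewer libraries, and the effect of the shared spread was not tested.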
